A study of Mus musculus with 2 samples.

Results

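The genes described are 10 members of the bone morphogenetic protein (BMP) system: the ligands Bmp2, Bmp3, Bmp4, Bmp5 and Bmp7, the receptors Bmpr1a and Bmpr2, and the extracellular antagonists Grem1, Nog and Fst. They were taken by symbol from the 34285 genes of the count matrices, and all 10 had counts in both libraries. Single cells came from the mandibular first molars and surrounding tissue of C57BL/6J mice at PN15.5. Of the 2 libraries, 1 was made from mice given clodronate liposomes, which kill phagocytic cells (Lipo-Clo, 40 μg/g, with injections at PN3.5, then PN6.5, then PN9.5 and last PN12.5), and 1 from mice given vehicle liposomes on the same schedule (Lipo-PBS). Injections were intraperitoneal, so cells outside the molar were exposed too, and the sources used here do not say how many mice each library pooled. Each condition is 1 library, so no test between conditions was possible and no value has a replicate check.

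Filtering kept 8255 cells with 26854938 counts of unique molecular identifiers (UMIs) in Lipo-Clo and 8262 cells with 25833910 UMIs in Lipo-PBS. Mitochondrial genes gave 0.370% of the kept UMIs in Lipo-Clo and 1.73% in Lipo-PBS, and the part of this difference in the results was not tested. Levels are UMIs summed over the cells of a class and scaled to 1000000 (CPM), and ratios set the Lipo-Clo level over that of Lipo-PBS and are given as log2 values. Intervals in brackets are exact, at the 95% level, and cover counting error only. The libraries shared 30 cell barcodes. Of 26 clusters, all but 1 fell into 12 named classes, with 4279 Lipo-Clo and 4038 Lipo-PBS cells of dental mesenchyme and 128 and 181 macrophages, so macrophages were still present after clodronate. The remaining cluster, led by Acta2 and Tagln with markers of several lineages, stayed unnamed and came from 44 Lipo-Clo and 780 Lipo-PBS cells. Within mesenchyme the summed level of 8 mesenchymal markers was close, at 68689 CPM in Lipo-Clo against 68043 CPM in Lipo-PBS. Other markers there differed: 6 erythroid markers summed to 22494 and 52364 CPM, 6 neutrophil markers to 600 and 115 CPM, and 7 fibroblast markers to 737 and 1419 CPM. Their part in the results below was not tested.

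BMP ligands are secreted dimers of the transforming growth factor-β superfamily. They bind complexes of type I and type II receptors, which phosphorylate SMAD1, SMAD5 and SMAD9, and these enter the nucleus with SMAD4 and switch on genes such as Id1 and Msx2. Antagonists such as gremlin and noggin bind ligands outside the cell and keep them from the receptors, while follistatin binds mainly activins and also some BMPs. In the tooth, BMP signals pass between epithelium and mesenchyme and take part in crown and root formation and in the differentiation of odontoblasts and osteoblasts.

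Promoter windows were read from RefSeq for 5 of the 10 genes: Grem1, Bmp4, Bmp5, Bmpr1a and Bmpr2. Those of Grem1 and Bmp4 are shown because both genes were lower in Lipo-Clo in the same mesenchymal state, described below. Each run is the 250 bases before the transcription start on GRCm38.p6, 5′ to 3′ on the minus strand, at chr2:113758649-113758898 for Grem1 and chr14:46390670-46390919 for Bmp4. Capitals mark GGCGCC, a GC-rich motif.
Grem1: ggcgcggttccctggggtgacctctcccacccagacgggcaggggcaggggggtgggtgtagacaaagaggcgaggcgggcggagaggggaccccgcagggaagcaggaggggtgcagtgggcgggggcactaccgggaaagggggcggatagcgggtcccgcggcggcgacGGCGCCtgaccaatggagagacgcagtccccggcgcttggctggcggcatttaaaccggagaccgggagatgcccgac
Bmp4: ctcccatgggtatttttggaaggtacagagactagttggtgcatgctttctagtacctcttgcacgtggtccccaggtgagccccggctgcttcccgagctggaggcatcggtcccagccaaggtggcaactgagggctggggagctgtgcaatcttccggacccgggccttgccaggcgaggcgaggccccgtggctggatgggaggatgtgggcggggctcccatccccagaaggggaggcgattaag
GGCGCC was present once in the windows of Grem1, Bmpr1a and Bmpr2, and in 9.59% of all 32851 windows of this length. The other 3 motifs searched on both strands, the RUNX core TGTGGT, the TATA box TATAAA and the GLI motif GACCACCCA, were in none of the 5 windows and in 14.0%, 12.4% and 0.225% of all windows. The share of G and C was 72% for Grem1 and 63.2% for Bmp4, against 42.8% for Bmp5 and 78.8% for Bmpr1a.

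Bmp3 is an atypical ligand that counteracts osteogenic BMPs and is abundant in bone (ENSMUSG00000029335, chr5:98854415-98884396, plus strand; gene positions are those of GENCODE M21 on GRCm38). Of the 5 ligands it had the largest share in mesenchyme, which held 88.7% of its UMIs in Lipo-Clo (87.7 to 89.7%) against 80.6% in Lipo-PBS (79.0 to 82.1%). These shares leave out the unnamed cluster of 44 and 780 cells, which held 0.70% and 7.17% of Bmp3 UMIs. The share of mesenchyme therefore moves with where that cluster is counted. The mesenchymal level of Bmp3 was 254 CPM in Lipo-Clo (246 to 262) and 154 CPM in Lipo-PBS (147 to 161), the highest of the 12 named classes in both libraries. With every cell thinned to 1000 UMIs, 18.0% of Lipo-Clo and 11.3% of Lipo-PBS mesenchymal cells had a Bmp3 UMI. The same share was 1.98% and 1.04% in erythroid cells, where the gene should be silent. It was 5.30% and 4.58% in B cells and 1.91% and 1.99% in neutrophils. The unthinned shares were 32.5% and 23.9% in mesenchyme, 5.75% and 2.50% in erythroid cells and 5.63% and 7.09% in B cells. B cells had 56.7 and 72.9 CPM of Bmp3, the next level after mesenchyme in Lipo-PBS. Median depth was 2843 and 2963 UMIs in mesenchymal and 3503 and 3028.5 in erythroid cells.

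Bmp4 and Bmp7, osteogenic ligands also known as epithelial signals of the tooth, were highest in ameloblasts, the enamel-forming cells. Bmp4 (ENSMUSG00000021835, chr14:46383520-46390669, minus strand) reached 118 CPM in Lipo-Clo (102 to 135) and 70.8 CPM in Lipo-PBS (54.4 to 90.6) there. In mesenchyme the Bmp4 level was 39.6 CPM and 50.1 CPM. Ameloblasts supplied 22.5% of all Bmp4 UMIs in Lipo-Clo and 6.26% in Lipo-PBS, from 604 and 337 cells. Bmp7 (ENSMUSG00000008999, chr2:172868012-172940321, minus strand) reached 204 CPM in Lipo-Clo ameloblasts (183 to 227) and 109 CPM in those of Lipo-PBS (88.4 to 133). Among whole classes ameloblasts thus had the highest level of both ligands. In Lipo-PBS the Bmp4 levels of the fibroblast-like and dental follicle-like mesenchymal states described below were higher as point values only, at 94.6 and 80.8 CPM. The latter lay inside the ameloblast interval. Mesenchyme, with many more cells, still held 66.3% and 67.0% of Bmp4 and 61.4% and 66.2% of Bmp7 UMIs. These shares leave out the unnamed cluster, which held 0.81% and 12.4% of Bmp4 and 0.56% and 8.31% of Bmp7 UMIs, so they too move with where it is counted. Epithelial cells outside the ameloblast class had 13.9 and 25.3 CPM of Bmp4.

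Bmp5 (ENSMUSG00000032179, chr9:75775364-75900310, plus strand), a ligand known for its role in cartilage and ear skeleton, was the one ligand led by perivascular cells. Its level there was 42.7 CPM in Lipo-Clo (29.2 to 60.2) and 57.2 CPM in Lipo-PBS (45.0 to 71.7), from 32 and 75 UMIs. In mesenchyme it was 4.77 and 6.47 CPM. Perivascular cells held 28.3% and 37.9% of its UMIs. Mesenchyme, with many more cells, held more of them, at 69 of 113 in Lipo-Clo and 87 of 198 in Lipo-PBS. The unnamed cluster held 0 and 22. In both places the ratio was not resolved, at −0.42 in perivascular cells (−1.07 to 0.19) and −0.44 in mesenchyme (−0.92 to 0.03). The locus overlaps the annotated genes Gm47723 on the same strand and Gm26903 on the other, so some of these few counts could belong to them.

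Bmp2 (ENSMUSG00000027358, chr2:133552159-133562885, plus strand), a potent osteoinductive ligand, was 49.8 CPM in Lipo-Clo mesenchyme (46.3 to 53.6) and 44.8 CPM in Lipo-PBS mesenchyme (41.3 to 48.6). Perivascular cells stood close to this at 42.7 and 41.2 CPM, with overlapping intervals. The classes did not rank alike in the libraries, since macrophages had the highest Bmp2 level in Lipo-PBS, at 134 CPM, but not in Lipo-Clo, at 40.1 CPM.

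**Figure D1:**
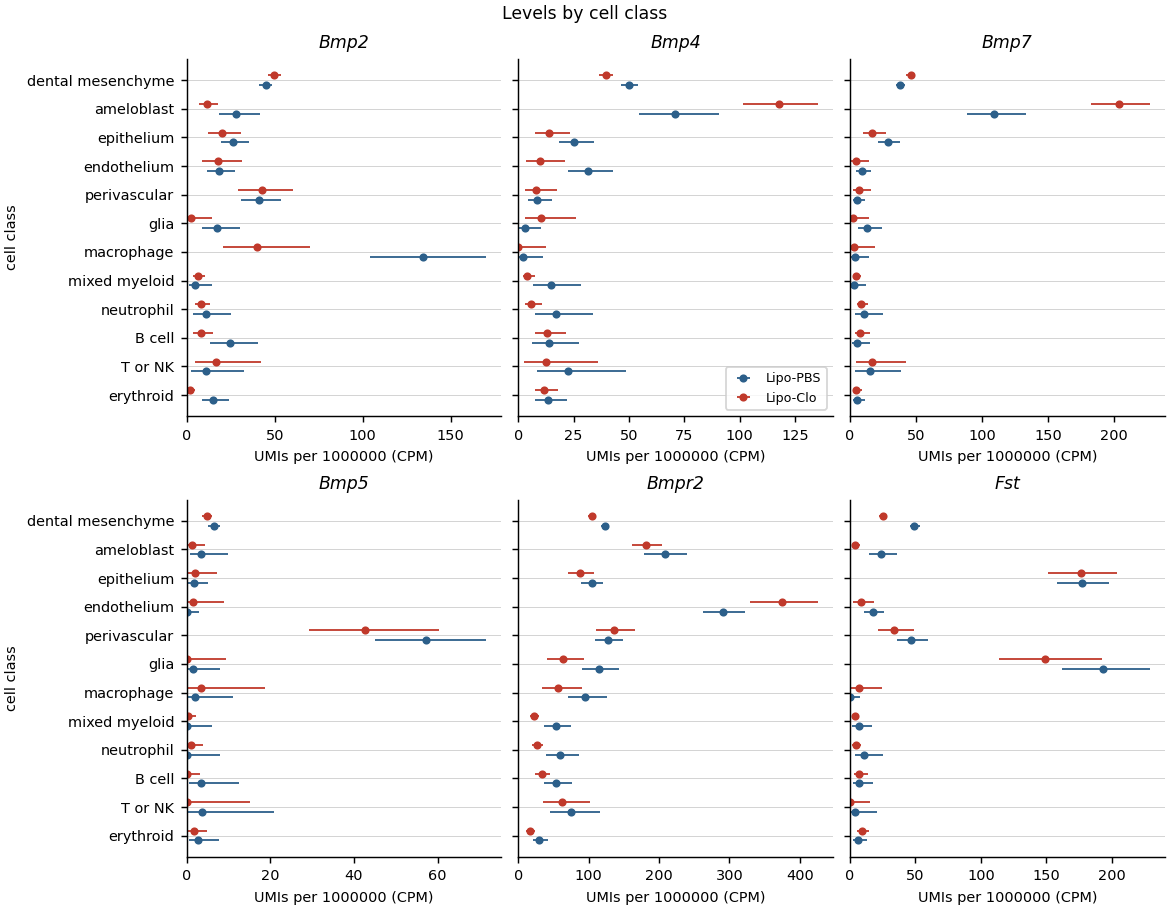
Levels of 6 BMP genes by cell class, as UMIs per 1000000 (CPM, linear axis) with exact 95% Poisson intervals, Lipo-Clo in red and Lipo-PBS in blue, 1 library each. Bmp4 and Bmp7 peak in ameloblasts, Bmp5 in perivascular cells, Bmpr2 in endothelium and Fst in epithelium and glia, and the Bmp2 intervals of macrophages do not overlap between the libraries.

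The type I receptor Bmpr1a (ENSMUSG00000021796, chr14:34410734-34503341, minus strand) was read in most tissue classes. Its level was highest in ameloblasts, at 207 CPM in Lipo-Clo (185 to 230) and 165 CPM in Lipo-PBS (140 to 194). Mesenchyme followed with 90.03 and 102 CPM and perivascular cells with 93.3 and 101 CPM, which the intervals did not separate. Gm17110 is annotated on the other strand of this locus, and Gm38125 overlaps that of Bmpr2 on the same strand. Across the 10 mesenchymal states of 50 or more cells, Bmpr1a stayed between 74.8 and 130 CPM in Lipo-Clo and between 63.1 and 133 CPM in Lipo-PBS, a narrow range beside the ligands.

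Bmpr2 (ENSMUSG00000067336, chr1:59763400-59879014, plus strand), the type II receptor known for its role in lung vessels, was highest in endothelium. The level was 375 CPM in Lipo-Clo (329 to 426) and 291 CPM in Lipo-PBS (262 to 322) there, against 104 and 123 CPM in mesenchyme. After thinning, 29.8% and 33.4% of endothelial cells had a Bmpr2 UMI, against 1.73% and 3.46% of erythroid cells, and before thinning 41.2% and 45.7%. The thinned share and the CPM thus ordered the libraries differently in endothelium. The class held a pair of clusters that the libraries shared unequally. The one led by Emcn and Cdh5 had 369 Lipo-Clo and 377 Lipo-PBS cells with 438 and 490 CPM of Bmpr2, a log2 ratio of −0.16 (−0.42 to 0.10). The one led by Ccl21a and Mmrn1 had 31 and 146 cells with 88.9 and 141 CPM, a ratio of −0.67 (−1.77 to 0.27). Neither cluster therefore showed the higher Bmpr2 level that the whole class had in Lipo-Clo.

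Among the antagonists, Grem1 (gremlin, ENSMUSG00000074934, chr2:113746164-113758646, minus strand), which binds BMP2, BMP4 and BMP7, was mesenchymal. Mesenchyme held 87.4% of its UMIs in Lipo-Clo (85.2 to 89.3%) against 79.4% in Lipo-PBS (77.2 to 81.5%), at levels of 65.1 and 85.2 CPM. The unnamed cluster, not counted as mesenchyme, held 2.13% and 8.66% of Grem1 UMIs. No other named class passed 23.8 CPM in Lipo-Clo or 38.2 CPM in Lipo-PBS. Nog (noggin, ENSMUSG00000048616, chr11:89300638-89302332, minus strand) was sparse everywhere, with 140 and 87 UMIs in all of mesenchyme (9.67 and 6.47 CPM) and no UMI in 400 and 523 endothelial cells, which allows levels of up to 4.79 and 2.37 CPM there at 3 counts.

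Fst (follistatin, ENSMUSG00000021765, chr13:114452290-114458951, minus strand), best known as an activin antagonist, had several sources. Its level was 176 CPM in Lipo-Clo (151 to 204) and 177 CPM in Lipo-PBS (158 to 198) in epithelium and 149 and 193 CPM in glia. Within epithelium it lay mostly in 1 of 2 clusters, led by Dsc3 and Nppc. That cluster had 751 and 692 CPM from 60 and 74 cells, a log2 ratio of 0.12 (−0.23 to 0.46). The cluster led by Krt15 and Lgals7 had 63.9 and 95.4 CPM from 181 and 382 cells, a ratio of −0.58 (−1.06 to −0.12). In mesenchyme as a whole the Fst level was 24.9 CPM in Lipo-Clo against 49.2 CPM in Lipo-PBS. After thinning, 17.7% of epithelial cells in both libraries and 1.24% and 1.04% of erythroid cells had an Fst UMI, and before thinning 27.0% and 28.9% of epithelial cells did.

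Mesenchyme was then compared between the libraries, to ask how these genes differed there after macrophages had been depleted. Of the 10 genes, Bmp3 was at least 1.5-fold higher in Lipo-Clo, where 3.78% of all 13172 genes with 50 or more UMIs were, and Fst was at least 1.5-fold lower, where 7.55% of all such genes were. The log2 ratio was 0.72 for Bmp3 (0.65 to 0.80) and −0.98 for Fst (−1.17 to −0.80). Nog lay just inside the limit, which is 0.585, at 0.58 (0.18 to 0.98). It was past it at 0.60 with TMM factors and at 0.62 with Leiden resolution 2, and at 0.20 with cells thinned to 1000 UMIs. The median log2 ratio was −0.21 over the 10 genes and −0.02 over all genes.

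The other ligands and the receptors differed less. Bmp4 was lower in Lipo-Clo with a ratio of −0.34 (−0.50 to −0.18) and Bmp7 higher with 0.27 (0.11 to 0.44). Bmp2 was not resolved at 0.15 (−0.01 to 0.31). Both receptors were slightly lower, Bmpr1a at −0.18 (−0.29 to −0.07) and Bmpr2 at −0.24 (−0.34 to −0.14). Grem1 was lower at −0.39 (−0.51 to −0.26). The antagonists therefore did not share a direction, with Nog above 0 and Grem1 and Fst below it. Under none of 11 other ways of processing did a member change sign.

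**Figure D2:**
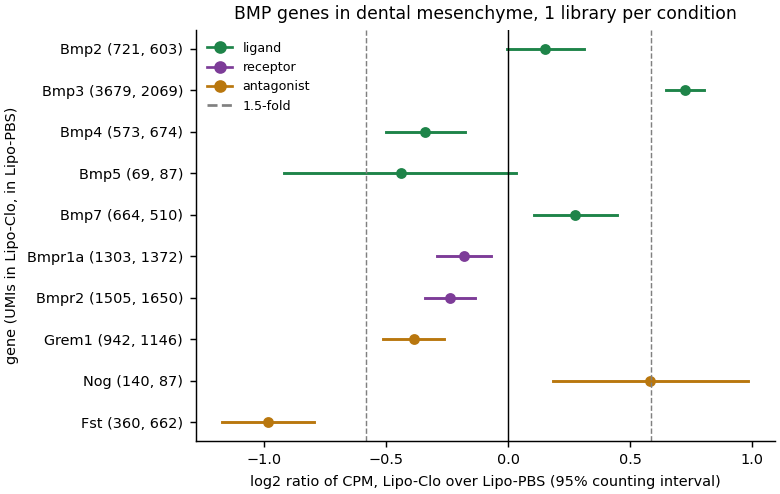
Log2 ratio of Lipo-Clo over Lipo-PBS for each gene in dental mesenchyme (points) with exact 95% counting intervals (lines), UMIs of both libraries in the labels, and dashed lines at 1.5-fold. Bmp3 at 0.72 and Fst at −0.98 lie beyond the dashed lines and Nog at 0.58 just inside.

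For some genes the whole-mesenchyme ratio moved with the mixture of states. Clustering mesenchyme again, with the 10 genes and the other pathway genes kept out of the variable genes, gave 11 states, 8 of which matched a marker list. Fst lay mainly in the fibroblast-like state led by Cd34 and Clec3b, which held 64.2% of mesenchymal Fst UMIs in Lipo-Clo and 70.2% in Lipo-PBS. That state was 13.2% of the mesenchymal cells of Lipo-Clo against 24.2% in Lipo-PBS. Its own Fst level was 167 CPM in Lipo-Clo (146 to 190) and 181 CPM in Lipo-PBS (165 to 198), giving a log2 ratio of −0.12 (−0.35 to 0.11). With the states weighted alike in both libraries (the same mixture of states), the mesenchymal ratio of Fst was −0.17 in place of −0.98. The state split in 2 when the BMP genes were admitted to the variable genes, and the ratio was −0.51 in the larger and −0.10 over both, most Fst UMIs being in the smaller one (195 of 235 in Lipo-Clo and 361 of 473 in Lipo-PBS).

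Bmp3 behaved otherwise. The Bmp3 ratio was above 0 in all 9 states with 50 or more of its UMIs, and its interval lay above 0 in 6 of them. Among the 6, the fibroblast-like state read only 60.6 and 37.8 CPM (Lipo-Clo first). The state led by Pcp4 and H19 read 56.8 and 28.2 CPM, beside 56.7 and 72.9 CPM for B cells. Papilla or pulp-like cells led by Lrrc4c and Pcp4, whose interval spans 0, read 33.6 and 26.1 CPM. Whether such low levels were RNA of the cells themselves was not tested. Weighting to the same mixture of states gave 0.60 for Bmp3 and made Grem1 −0.62. The state led by C1qtnf3 and Col18a1, dental follicle-like by Moxd1 and 2 other markers, had 771 CPM of Bmp3 in Lipo-Clo (736 to 807) and 410 CPM in Lipo-PBS (379 to 442), giving a log2 ratio of 0.91 (0.78 to 1.04). Periodontal ligament-like cells, led by Crispld2 and Aspn, had 159 and 80.9 CPM, a ratio of 0.97 (0.71 to 1.24). Osteoblast or cementoblast-like cells, led by Smpd3 and Bglap2, had as high a level of Bmp3 as any state in Lipo-PBS, yet their 471 and 457 CPM gave a ratio of 0.04 (−0.10 to 0.19). The intervals of this state and of the follicle-like and ligament-like states do not overlap.

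The dental follicle-like state was also where Grem1 was read. It held 81.7% of mesenchymal Grem1 UMIs in Lipo-Clo (79.1 to 84.2%) against 79.1% in Lipo-PBS (76.6 to 81.4%), though 15.4% and 12.2% of mesenchymal cells. Its Grem1 level was 323 CPM in Lipo-Clo (301 to 347) and 547 CPM in Lipo-PBS (512 to 583), giving a log2 ratio of −0.76 (−0.90 to −0.62). The next state, led by Edil3 and Angptl1 and not named, had 50.8 and 59.6 CPM. Bmp4 in the follicle-like state was 42.4 and 80.8 CPM, a ratio of −0.93 (−1.32 to −0.55), and Bmp7 48.2 and 71.2 CPM, a ratio of −0.56 (−0.94 to −0.18). Nog had 36 UMIs there in Lipo-Clo (15.1 CPM) and 8 in Lipo-PBS (4.83 CPM). Of 8 members with 50 or more UMIs in this state, Bmp3 was at least 1.5-fold higher, as 7.3% of 7795 genes were, and Bmp4, Grem1 and Fst at least 1.5-fold lower, as 14.2% were. Follicle-like cells of Lipo-Clo thus had more Bmp3 and less Grem1, Bmp4 and Bmp7 mRNA per UMI.

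**Figure D3:**
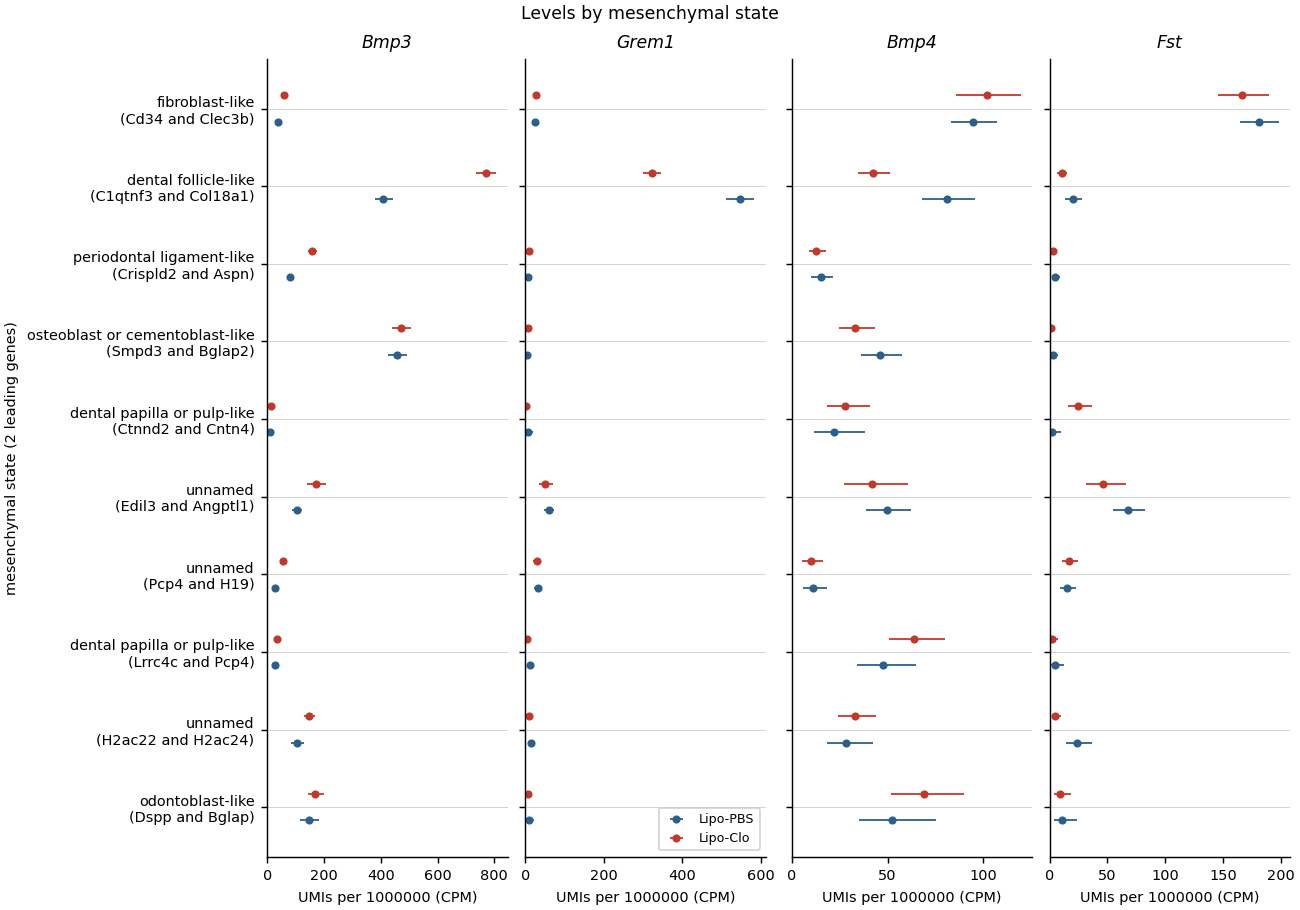
Levels of Bmp3, Grem1, Bmp4 and Fst in the 10 mesenchymal states of 50 or more cells, as CPM on linear axes with exact 95% Poisson intervals, Lipo-Clo in red and Lipo-PBS in blue. Bmp3 and Grem1 part in opposite directions in the dental follicle-like state, and Fst is highest and alike in both libraries in the fibroblast-like state led by Cd34 and Clec3b.

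The follicle-like state was itself uneven, so it was divided again, a step chosen after its values had been seen. At Leiden resolution 0.4 it gave 6 subdivisions, some led by genes of blood cells such as the neutrophil gene S100a9 and the haemoglobin genes. Bmp3 was high in the one led by Vcan and S100a9, at 838 CPM in Lipo-Clo against 817 CPM in Lipo-PBS, and in the one led by Ibsp and Timp3, at 892 and 798 CPM. Grem1 was high in the one led by Aqp1 and Chchd10, at 959 and 989 CPM. In these 3 the levels of the abundant gene were close between libraries, with log2 ratios of 0.04 (−0.34 to 0.43) and 0.16 (−0.07 to 0.40) for Bmp3 and −0.04 (−0.26 to 0.17) for Grem1. Their cells were not shared evenly: 306 Lipo-Clo against 18 Lipo-PBS cells, 182 against 66, and 80 against 200. Grem1 in the one led by Vcan and S100a9 was 335 and 188 CPM from 432 and 14 UMIs, a ratio of 0.83 (0.07 to 1.72). In the subdivision led by Hbb-bs and Hba-a2, with 74 and 78 cells, Bmp3 was 733 and 338 CPM, a ratio of 1.12 (0.72 to 1.52), and Grem1 234 and 350 CPM, a ratio of −0.58 (−1.13 to −0.05).

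These values differed between the divisions of the state, whose weightings did not cover the same cells. Weighted to the same mixture of the 5 subdivisions with 10 or more cells in each library, the state's ratio was 0.19 for Bmp3, 0.14 for Grem1 and −0.50 for Bmp4. At resolution 0.8, also looked at before either was described, there were 10 subdivisions, and the same weighting over 7 of them gave 0.47, −0.19 and −0.51 from 786 of the 1152 cells. The cells left out were mostly Lipo-Clo cells high in Bmp3. The subdivision led by S100a9 and Vcan had 194 and 9 cells with 926 and 835 CPM of Bmp3. The one led by Tagln and Ibsp had 150 and 3 cells with 865 and 709 CPM. Finer division and the loss of these cells were not separated. At resolution 0.8 the Grem1 ratio ran from −1.47 in the subdivision led by Col7a1 and Igfbp3 (369 and 1026 CPM) to 0.88 in the one led by Aspn and Fn1 (600 and 327 CPM), with 3 of 6 intervals below 0 and 2 above. Bmp3 ratios were above 0 in all 7, from 0.10 to 0.90, with 2 intervals above 0. With 1 library per condition, a subdivision mostly of 1 library and that library cannot be told apart, and fewer cells of a kind and less RNA per cell were not separated by these data.

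**Figure D4:**
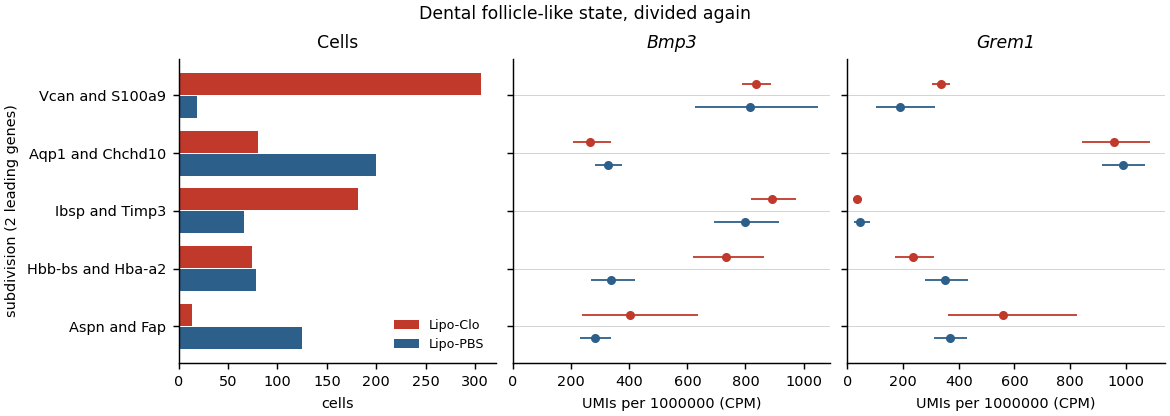
The 5 subdivisions of the dental follicle-like state with 50 or more cells at Leiden resolution 0.4: cells of each library (left, bars from 0) and levels of Bmp3 and Grem1 in CPM with exact 95% Poisson intervals. The subdivision led by Vcan and S100a9 has 306 and 18 cells and the one led by Aqp1 and Chchd10 80 and 200. Bmp3 levels lie close in the first and Grem1 levels in the second, while Grem1 in the first is 335 and 188 CPM.

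The remaining ligands had other peaks within mesenchyme. Bmp2 was highest in papilla or pulp-like cells led by Ctnnd2 and Cntn4, at 131 and 104 CPM, and in osteoblast or cementoblast-like cells, at 105 and 103 CPM, and these neighbours were not separated by their intervals. In periodontal ligament-like cells it was 11.7 and 23.1 CPM, a ratio of −0.98 (−1.69 to −0.30). In papilla or pulp-like cells led by Lrrc4c and Pcp4 it was 91.8 and 61.7 CPM, a ratio of 0.57 (0.09 to 1.08). Bmp7 led in odontoblast-like cells, which carry the dentin gene Dspp, at 120 and 101 CPM, and in osteoblast or cementoblast-like cells, at 94.9 and 72.9 CPM (ratio 0.38, 0.02 to 0.74). Bmp4 led in the fibroblast-like state, at 102 and 94.6 CPM, where its ratio was 0.10 (−0.21 to 0.41). Intervals did not separate it from the next state, odontoblast-like at 68.8 CPM in Lipo-Clo and dental follicle-like at 80.8 CPM in Lipo-PBS. Nor did they separate the Bmp7 levels of odontoblast-like and osteoblast or cementoblast-like cells in either library. Fst, which was rare in papilla or pulp-like cells, had 23 UMIs in Lipo-Clo (24.6 CPM) and 1 in Lipo-PBS (1.82 CPM) in those led by Ctnnd2 and Cntn4.

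Outside mesenchyme, ameloblasts differed from it in direction for Bmp4. Ameloblasts had 5 members with 50 or more UMIs. The ameloblast log2 ratio was 0.73 for Bmp4 (0.32 to 1.17) and 0.90 for Bmp7 (0.57 to 1.24), past 1.5-fold as 7.11% of 6416 genes were. Bmpr1a in ameloblasts gave 0.32 (0.04 to 0.61). In the same cells Bmp3 was 35.2 and 62.9 CPM, a ratio of −0.84 (−1.39 to −0.28), past 1.5-fold as 7.54% were. Their 6 ameloblast markers summed to 65685 CPM in Lipo-Clo against 42518 CPM in Lipo-PBS and their 8 mesenchymal markers to 9568 and 16118 CPM, and the part of this in the ratios was not tested. Epithelium gave −0.87 for Bmp4 (−1.85 to 0.03) and −0.77 for Bmp7 (−1.66 to 0.05), both at least 1.5-fold lower as 11.5% of 6943 genes were. None of the 8 members with 50 or more UMIs in epithelium was at least 1.5-fold higher, where 3.72% of genes were. Endothelium gave 0.37 for Bmpr2 (0.12 to 0.61), though both of its clusters were below 0 as given above. Bmp3 in endothelium gave 0.76 (−0.05 to 1.56), past 1.5-fold as 8.85% of 6012 genes were. Only these 2 members had 50 or more UMIs there. Neither was lower, where 9.46% of genes were, but 2 members are too few for this absence to be read. In glia Bmp3 was 78.5 CPM from 31 UMIs and 27.2 CPM from 19 UMIs, a ratio of 1.53 (0.66 to 2.43), past 1.5-fold as 8.04% of 3817 genes were, while the 8 mesenchymal markers there summed to 19175 and 14339 CPM. Erythroid cells, where Bmp3 should be silent, had 35.9 and 14.1 CPM from 64 and 16 UMIs. Their ratio was 1.35 (0.54 to 2.24), and its interval overlaps the glial one. Bmp3 gave −0.36 (−0.94 to 0.23) in B cells, −0.53 (−1.25 to 0.25) in neutrophils and −0.51 (−1.36 to 0.41) in mixed myeloid cells. Its levels were 56.7 and 72.9 CPM in B cells and 32.5 and 46.9 CPM in neutrophils. In each library the Bmp3 levels of ameloblasts and endothelium (41.5 and 24.5 CPM) lay within the range of these and erythroid cells. Bmpr2 in glia was 63.3 and 115 CPM, a ratio of −0.86 (−1.57 to −0.19), at least 1.5-fold lower as 13.3% of genes were. This was not particular to glia, since the Bmpr2 ratio was below 0 in 9 of the 11 classes that had one. It was −0.88 (−1.65 to −0.12) in erythroid cells, −1.19 (−1.89 to −0.47) in neutrophils and −0.70 (−1.42 to 0.03) in B cells. Glia had 4 members with 50 or more UMIs. Perivascular cells had no member past 1.5-fold in either direction among 6 with 50 or more UMIs, where 7.11% of 5861 genes were higher and 6.31% lower.

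Macrophages, the cells clodronate targets, were compared for Bmp2 alone among the ligands, the other ligands having at most 15 UMIs there in either library. The 128 Lipo-Clo macrophages held 12 Bmp2 UMIs in 9 cells (40.1 CPM, 20.7 to 70.0) and the 181 Lipo-PBS macrophages 68 UMIs in 34 cells (134 CPM, 104 to 170). The log2 ratio was −1.75 (−2.77 to −0.85), past 1.5-fold as 14.6% of 2585 genes were. The richest single cell held 2 of these UMIs in Lipo-Clo and 8 in Lipo-PBS. The 6 macrophage markers summed to 10765 and 8615 CPM and the 8 mesenchymal markers to 8949 and 10980 CPM in these cells, and their part in the ratio was not tested. The receptor Bmpr2 was 56.7 and 94.8 CPM, a ratio of −0.74 (−1.63 to 0.08), beside −0.70 in B cells and −0.88 in erythroid cells. Bmp2 and Bmpr2 were the only 2 members with 50 or more UMIs in macrophages. Neither was higher, where 8.86% of genes were, but 2 members are too few for this absence to be read. After thinning, 3.60% (0.990 to 8.97%) and 12.2% (7.61 to 18.2%) of macrophages had a Bmp2 UMI, against 0.758% and 1.96% of B cells, and before thinning 7.03% and 18.8% of macrophages and 1.501% and 3.19% of B cells. Median depth was 1900 and 2443 UMIs in macrophages and 994 and 1094 in B cells. With macrophages taken instead as the cells that held at least 3 UMIs of C1qa, C1qb or C1qc together, which was decided once these values were known, the ratio was −1.16 from 18 and 89 UMIs.

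The other genes of the pathway were read from a list of 56, of which 47 had 50 or more UMIs in mesenchyme. Of the 47, 5 were at least 1.5-fold higher in Lipo-Clo and 7 at least 1.5-fold lower, against 3.78% and 7.55% of all genes, and their median log2 ratio was −0.07. All 10 targets lay above 0, with a median of 0.48, and the median of the 10 receptors and co-receptors was −0.27. With the unnamed cluster counted as mesenchyme Id4 was below 0. With the same mixture of states the median of the targets was 0.29 and that of the receptors and co-receptors −0.11. Id1, an inhibitor of basic helix-loop-helix factors, was 99.2 and 62.7 CPM, a log2 ratio of 0.66 (0.54 to 0.79). Msx2, a homeobox gene of tooth and skull, was 54.7 and 34.1 CPM, a ratio of 0.68 (0.51 to 0.85). Id2 and Id3, relatives of Id1, gave 0.33 (0.24 to 0.42) and 0.41 (0.38 to 0.44), and Dlx3, a homeobox gene of dentin and enamel, 0.59 (0.34 to 0.84).

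Of the 9 SMADs and their inhibitors, 3 were above 0, with a median of −0.13. Bambi, a pseudoreceptor that dampens signalling, was 388 CPM in Lipo-Clo against 236 CPM in Lipo-PBS, giving a log2 ratio of 0.72 (0.66 to 0.78). Smad6, which blocks the type I receptor, gave 0.30 (0.13 to 0.47), but was below 0 with the same mixture of states. Smurf2, a ubiquitin ligase that acts on SMADs and receptors, was below 0 at −0.54 (−0.66 to −0.42). The extracellular antagonists and modulators on the list had a median of −0.33 (−0.01 with the same mixture of states). Of the 13, 5 were above 0, the highest being Sostdc1 at 0.54 (0.35 to 0.73). None was at least 1.5-fold higher and 3 were at least 1.5-fold lower, against 3.78% and 7.55% of all genes. Chrdl1, a chordin-like antagonist, was 12.51 and 32.34 CPM, a ratio of −1.37 (−1.63 to −1.12), and Bmper, another chordin-type modulator, −0.92 (−1.28 to −0.56). The third was Tll1, a protease that cleaves chordin and so frees ligand, at −1.25 (−1.72 to −0.80). Among receptors, Acvr2a, a type II receptor for activins and BMPs, gave −0.99 (−1.25 to −0.73) and the co-receptor Tgfbr3 −0.71 (−0.85 to −0.58). The ligand Gdf10 was 44.7 and 71.2 CPM, a ratio of −0.67 (−0.82 to −0.53), but with the same mixture of states its ratio was above 0.

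**Figure D5:**
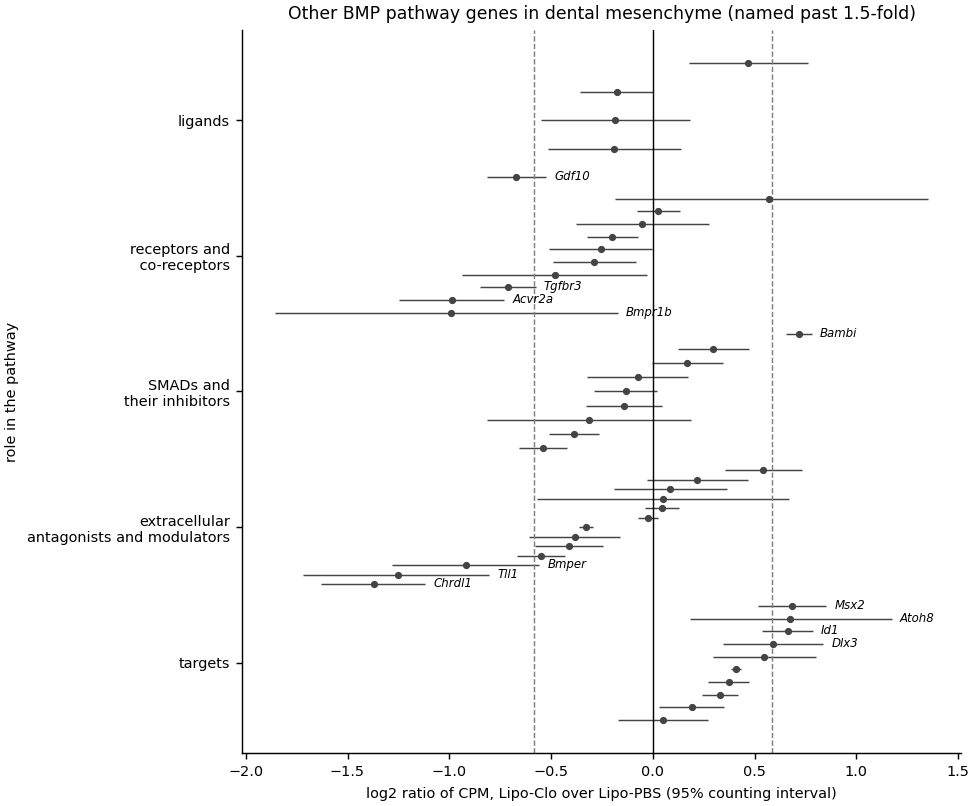
Log2 ratios in dental mesenchyme for the 47 other BMP pathway genes with 50 or more UMIs, by role, with exact 95% counting intervals and dashed lines at 1.5-fold, and names for those past it. All 10 targets lie to the right of 0, and 5 of the 13 extracellular modulators and 2 of the 10 receptors and co-receptors do.

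The genes most like a member in pattern were found over 21 units, the 11 named classes outside mesenchyme and 10 mesenchymal states of 50 or more cells, by the lower of the libraries' Pearson correlations of log2(CPM + 1) among 9829 genes. The units share libraries, depth and free RNA, so these are descriptions. Grem1 was most like Itgbl1 (0.779), Mmp11 and Arsi, and Bmp3 most like Lamc3 (0.820), Creb3l1 and Nupr1. Fst was most like Igfbp2 (0.765), Npr3 and Tgfbr3, and Bmp4 most like Wnt9a (0.770), Ism1 and Ndrg4. Bmp7 was most like Msi1 (0.796), Ankrd6 and Pdgfc, and Bmp5 most like Cacnb2 (0.720), Tpm1 and Rasl11a. The receptors had the closest partners, Fat1 (0.882), Gpc4 and Ryk for Bmpr1a and Tulp4 (0.895), Dip2c and Aplp2 for Bmpr2. Nog, at the lowest counts, was most like Cpxm1 (0.711), Rhod and Kcnb2.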

How the data were processed

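Single-cell RNA was read from 2 libraries, 1 per condition, made with droplet capture of cells from the first molars. The authors deposited, per sample, a matrix of UMI counts per gene and cell with gene and barcode lists. The submitters' processing notes name Cell Ranger 3.1.0 and Seurat 3.1.1, and the file headers name Cell Ranger 8.0.0. The notes name the mouse build mm39, while positions printed here are those of GRCm38, joined by Ensembl identifier. Every column of the matrices belonged to 1 library, and none of another sample was used.

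The deposited counts covered 9362 Lipo-Clo cells (31053404 UMIs) and 9653 Lipo-PBS cells (30537834 UMIs). Cells with fewer than 200 genes (473 and 748) or with more than 20% of UMIs from mitochondrial genes (3 and 11) were dropped. A doublet caller (Scrublet, automatic threshold) marked 1 cell per library and so had not worked, and the cells with the highest doublet scores, 0.8% per 1000 cells, were left out instead (631 and 632). Counts were scaled to 10000 per cell and logged, and 2000 variable genes, 30 components and 20 neighbours gave Leiden clusters at resolution 1 (scanpy 1.11.5, leidenalg 0.10.2). The BMP genes were kept out of the variable genes. A cluster was named where at least 3 markers of a list were at least 2-fold higher and in at least 10% of its cells. Mesenchyme was clustered again at resolution 0.6 and the dental follicle-like state at 0.4 and 0.8. The rule for doublets, parts of the naming rule and both divisions of the follicle-like state were settled after the data had been seen.

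Counts were summed per library and class. Levels have exact Poisson intervals, shares exact Clopper-Pearson intervals and ratios the exact interval for a pair of Poisson counts. Ratios were given only with 50 or more UMIs over both libraries. Molecular identifiers were counted, but cells are not replicates, so no test was run and intervals cover counting error only. Ratios and their intervals were checked on simulated counts with known changes. The simulated counts were Poisson, without spread between cells or libraries, so the check covers the calculation and not such spread. TMM factors came from edgeR 4.0.16. Promoter windows came from RefSeq tables on GRCm38.p6.

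The genes named are the 10 members, the pathway genes past 1.5-fold with 200 or more UMIs, Id1, Id2, Id3, Smad6 and Msx2, for each member the 3 genes most like it (those of Bmp2 are not reported here), and the leading genes of each state. Id4, Smurf2, Sostdc1, Tll1, Acta2 and Tagln are named outside this rule, after their values had been seen. So are the leading genes of subdivisions and of epithelial and endothelial clusters. Members and lists were chosen with earlier results of these data known. Alternatives were another scaling, other filters, other resolutions, each library clustered alone, thinned cells, weighting to the same mixture of states, other limits, and those added after the data had been seen. No batch label told the libraries apart, so no split by batch could be made.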

Additional observations from a re-analysis of the deposited data

Results flagged for a closer look

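Some members had ratios of Lipo-Clo over Lipo-PBS whose counting intervals lay on opposite sides of 0 in different classes. With 1 library per condition every such difference between classes was not tested. Bmp3 had a log2 ratio of 1.53 in glia and −0.84 in ameloblasts, and 1.35 in erythroid cells, where the gene should be silent. In B cells, neutrophils and mixed myeloid cells its ratio was −0.36, −0.53 and −0.51, with intervals that span 0. The ameloblast Bmp3 levels, 35.2 and 62.9 CPM, lay between those of neutrophils (32.5 and 46.9 CPM) and B cells (56.7 and 72.9 CPM). Bmp4 had 0.73 in ameloblasts and −0.34 in dental mesenchyme. Bmpr1a had 0.32 in ameloblasts and −1.73 in erythroid cells, the latter from 17 and 36 UMIs (9.54 and 31.7 CPM). After thinning, 1.24% and 3.11% of erythroid cells had a Bmpr1a UMI. Neutrophils also had a Bmpr1a ratio below 0, at −1.14 (−1.92 to −0.32). Bmpr2 had 0.37 in endothelium and −1.23 in the mixed myeloid class, but was −0.16 and −0.67 in the endothelial clusters taken singly, which held 369 and 31 Lipo-Clo against 377 and 146 Lipo-PBS cells. In erythroid cells and neutrophils the Bmpr2 ratio was −0.88 and −1.19.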

How the results depend on the processing

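No paired analysis was possible because a condition had 1 library only, and no library could be left out. In mesenchyme no member changed sign under the 11 other scalings, filters and clusterings. Weighting to the same mixture of states gave 0.60 for Bmp3, −0.13 for Bmp4, 0.073 for Bmp7, −0.62 for Grem1 and −0.17 for Fst. Counting the cluster of several lineages as mesenchyme, an alternative added later, gave 0.88 for Bmp3 and −0.23 for Grem1, and thinned cells gave −0.24 for Grem1.

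The number of members at least 1.5-fold higher in Lipo-Clo, 1 as reported, was 2 with TMM factors, with Leiden resolution 2, with the BMP genes admitted, with that cluster counted as mesenchyme and at a looser limit (0.32 on the log2 scale), and 0 at 2-fold. The number lower, also 1, was 4 at the looser limit, 0 at 2-fold, and 0 where a UMI in at least 10% of mesenchymal cells was required, which left 6 members. With the same mixture of states 1 member was lower too, but it was Grem1 and not Fst. Of the other pathway genes, 5 were higher as reported. There were 3 with 500 genes and 10% mitochondrial UMIs as the filter, 2 with the same mixture of states, 3 with the cluster of several lineages, 12 at the looser limit, 0 at 2-fold and 3 with the 10% rule. The 7 lower became 14, 2 and 2 at the looser limit, at 2-fold and with the 10% rule.

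In dental follicle-like cells, where all alternatives were added after the data had been seen, Bmp3 gave 0.19 with the same mixture of subdivisions, 0.47 with that of the finer ones and 1.12 with thinned cells. Grem1 there turned to 0.14 with the same mixture of subdivisions, and gave −0.19 with the finer ones and −0.91 with thinned cells. Bmp4 gave −0.50 and −0.51 with the coarser and finer mixtures. The coarser mixture covered 1142 of the 1152 cells and the finer one 786. Fst in fibroblast-like cells gave −0.51 in the larger of the states formed with the BMP genes admitted. Bmp2 in macrophages stayed between −1.92 and −1.16. Of 60 levels recomputed 6 moved past their counting interval, as did 16 of 60 shares, most of them when doublets were kept. The cause of these movements was not tested. Depth limits Nog, Bmp5 and every gene in the small classes.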
